A study of Mus musculus with 6 samples.

Results

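The 9 genes described here are those for CDK9 (Cdk9), its cyclin T partners (Ccnt1 and Ccnt2), the P-TEFb inhibitor HEXIM1 (Hexim1), the 7SK-binding protein LARP7 (Larp7), the BET proteins BRD2 and BRD3 (Brd2 and Brd3), and the AFF scaffold proteins (Aff1 and Aff4). They were chosen by name, for their place in the control of transcription elongation, from the 55536 genes of the deposited table. Earlier results of these data were known when they were chosen. All 9 were found and passed the filter on low counts. The RNA was taken from primary T cells of the OT-I line of mice (genotype given as wildtype), from lymph nodes. OT-I mice carry a transgene whose T cell receptor recognises an ovalbumin peptide. The cells were kept for 2 h with disulfiram (DSF), a thiuram disulfide used against alcohol dependence, or with its solvent dimethyl sulfoxide (DMSO), 3 libraries each. For the dose of DSF, any stimulation of the cells and the number of mice, the labels used here give no value. The labels call the libraries of a group biological replicates and name no separate mice or cultures, so p-values measure the spread between these libraries. The deposited table names its groups DO and DF, and every direction below takes DO for DMSO and DF for DSF from the letters.

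P-TEFb is the kinase of CDK9 and a cyclin T that phosphorylates RNA polymerase II and the factors that hold it paused near the start of a gene, which lets it move into productive elongation. Part of the cell's P-TEFb is kept inactive by HEXIM1 on the noncoding RNA 7SK, whose ends are protected by LARP7 and the capping enzyme MEPCE. Active P-TEFb is brought to genes by BET proteins, which read acetylated histones, and by the super elongation complex, which is assembled on AFF1 or AFF4. In T cells these factors serve the rapid induction of genes after receptor signals.

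The 7SK RNA is shown first because HEXIM1, the inhibitor described here, binds repeats of a short motif near its 5′ end. In the first 100 of its 331 bases, read from the GENCODE M21 transcripts and written as DNA, that motif, GATC, occurs 3 times, marked in capitals.
Rn7sk, bases 1 to 100: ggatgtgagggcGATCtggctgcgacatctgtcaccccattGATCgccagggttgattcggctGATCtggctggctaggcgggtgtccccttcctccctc

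Promoters are shown for 4 of the 5 members that changed, taken from RefSeq, build GRCm38.p6, from 250 bases before to 50 bases after the annotated start. RefSeq windows were found for all 9 genes, 12 windows in all, of which Brd2, the other changed member, has 3. The Aff1 window is the first of 2. It and the Hexim1 window belong to starts inside the gene spans of GENCODE. Capitals mark a match on either strand to the TATA box TATAAA, to the GC box GGGCGG, to the E-box CACGTG, to the cAMP response element TGACGTCA or to the CCAAT box. None of these motifs is contained in another.
Hexim1, chr11:103116075-103116374, plus strand: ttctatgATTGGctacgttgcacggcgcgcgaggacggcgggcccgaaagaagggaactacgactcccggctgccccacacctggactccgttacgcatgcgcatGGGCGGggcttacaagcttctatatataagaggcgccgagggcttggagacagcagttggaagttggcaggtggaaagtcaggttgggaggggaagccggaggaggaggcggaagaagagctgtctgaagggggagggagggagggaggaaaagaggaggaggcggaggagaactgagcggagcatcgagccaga
Larp7, chr3:127553300-127553599, minus strand: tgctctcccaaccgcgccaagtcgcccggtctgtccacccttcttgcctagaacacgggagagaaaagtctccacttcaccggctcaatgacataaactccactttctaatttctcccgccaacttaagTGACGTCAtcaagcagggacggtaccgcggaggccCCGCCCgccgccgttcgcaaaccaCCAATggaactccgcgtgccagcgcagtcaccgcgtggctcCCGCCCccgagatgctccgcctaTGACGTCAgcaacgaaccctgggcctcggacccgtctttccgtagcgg
Aff1, chr5:103753912-103754211, plus strand: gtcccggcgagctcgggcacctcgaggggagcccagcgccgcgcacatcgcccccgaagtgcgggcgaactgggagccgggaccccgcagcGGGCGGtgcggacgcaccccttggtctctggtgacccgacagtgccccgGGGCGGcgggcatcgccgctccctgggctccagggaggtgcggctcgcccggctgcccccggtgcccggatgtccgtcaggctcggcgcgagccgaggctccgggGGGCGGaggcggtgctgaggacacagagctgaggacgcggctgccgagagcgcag
Aff4, chr11:53350517-53350816, plus strand: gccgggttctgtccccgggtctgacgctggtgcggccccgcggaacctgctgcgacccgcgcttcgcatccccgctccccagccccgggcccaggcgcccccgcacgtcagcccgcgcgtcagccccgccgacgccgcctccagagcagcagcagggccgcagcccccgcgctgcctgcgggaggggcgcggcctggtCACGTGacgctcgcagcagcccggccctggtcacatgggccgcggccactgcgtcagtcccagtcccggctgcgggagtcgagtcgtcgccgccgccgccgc

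The window of Hexim1 held GGGCGG as printed and CCAAT on the other strand. The window of Larp7 held TGACGTCA in 2 places, the first starting 121 bases before and the second 3 bases after the start, and no other member held it, against 1.8% of all 32851 windows. CACGTG, which MYC and MAX bind, was found in the window of Aff4 alone among the 9 genes, and in 7.2% of all windows. GGGCGG occurred in 10 of the 12 windows and 8 of the 9 genes, against 35.7% of all windows, and the 12 windows had 58.7 to 79.0% GC, against a median of 52.7% over all windows. CCAAT occurred in 4 of the 9 genes (37.4% of all windows) and TATAAA in 0 (13.6% of all windows). Only exact matches were counted, and the Hexim1 window holds tatataag, which is not an exact match to TATAAA. A match describes the letters of these windows and does not show that a factor was bound.

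The libraries held 18082264 to 21893720 counts, and the members had between 758 and 8953 counts in each library. A floor of 3 counts was worth 0.137 to 0.166 CPM (counts scaled to the library's total), far below every member. The 8 T cell markers summed to 2706 to 2769 TPM (abundance per transcript length, scaled to a common total) in DMSO and 2655 to 2712 in DSF. Of these 8, 1 was higher and 3 lower with DSF (Cd8a, Trac, Cd2 and Cd3g changed), where 22.9% of all tested genes changed. Markers of other cells were low but not at 0. They summed to 13.6 to 18.8 TPM in DMSO and 16.6 to 17.9 in DSF for CD4 and regulatory T cells, 24.0 to 27.2 and 26.6 to 27.9 for B cells, 17.2 to 18.7 and 15.1 to 19.2 for myeloid and dendritic cells, 1.79 to 2.21 and 1.68 to 2.86 for natural killer cells, and 18.8 to 20.7 and 17.2 to 19.1 for stromal, endothelial and erythroid cells. Of these other markers Zbtb7b was higher and Xcr1 lower, and their part in the results was not tested. In such bulk samples fewer cells of a type and less RNA per cell cannot be told apart.

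Aff1 rose 1.83-fold with DSF, and Hexim1, Brd2 and Aff4 rose 1.09- to 1.14-fold, while Larp7 fell to 0.89 of its DMSO level. Neither the kinase gene Cdk9 nor the cyclin genes Ccnt1 and Ccnt2 passed the test. With edgeR's quasi-likelihood F-test, 5 of the 9 members (55.6%) passed an adjusted p of 0.05 (Benjamini-Hochberg), 4 higher and 1 lower, where 22.9% of the 14318 genes tested changed, 11.6% higher and 11.3% lower. Of the tested genes averaging 5 CPM or more, as all the members do, 28.8% changed. By CPM, the libraries of DMSO and DSF did not overlap in 6 of the 9, against 35.4% of all tested genes. Among these 6, Aff4 and Brd3 did overlap in TPM. Aff4 ran from 24.86 to 27.91 TPM in DMSO and from 27.02 to 39.7 in DSF, and Brd3 from 9.9 to 14.28 and from 12.6 to 14.15. The median log2 fold change was 0.11 over the members and 0.00 over all tested genes. Because the members were chosen with earlier results of these data known, these shares describe the list and are no independent comparison with all genes.

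**Figure D1:**
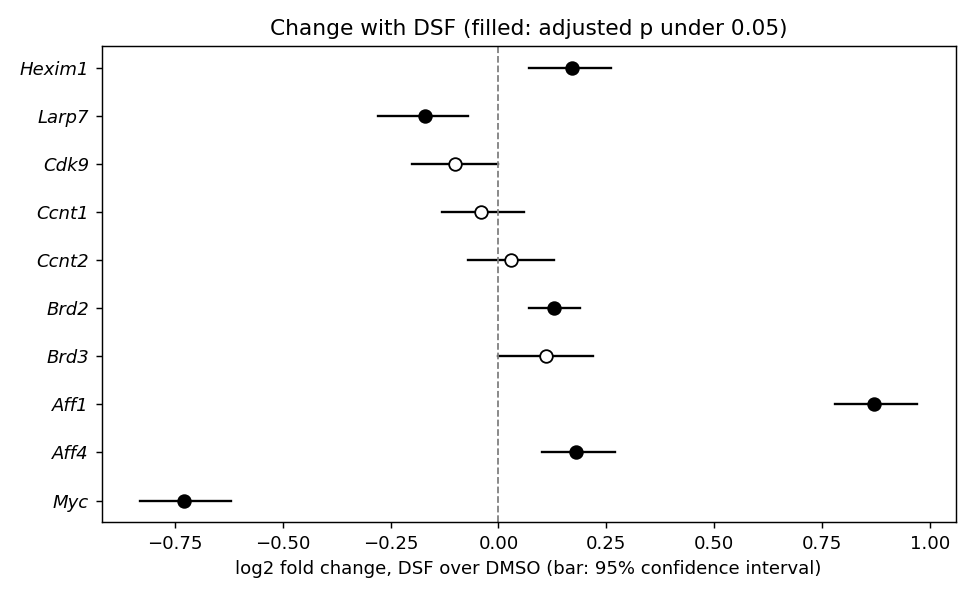
Log2 fold change of each gene with DSF against DMSO (x axis), with its 95% confidence interval, for the 9 members and Myc (y axis); filled points passed edgeR's test at an adjusted p under 0.05. Aff1 stands apart at 0.87 and Myc at -0.73, and the other 8 members lie between -0.17 and 0.18.

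Levels compared between genes are in TPM, which divides by transcript length. Brd2 was by far the highest member, at 231 ± 10.3 TPM in DMSO and 249 ± 2.05 TPM in DSF (mean ± SD, n = 3 per group). Cdk9 followed at 79.2 ± 3.62 and 77.6 ± 4.35 TPM, then Larp7 at 43.9 ± 1.28 and 39.6 ± 2.34 TPM. In DMSO, Hexim1 at 29.0 ± 0.944 TPM stood just above Aff4 at 26.9 ± 1.73, and Ccnt1 at 26.6 ± 2.52 overlapped both. Ccnt2 came next at 19.5 ± 0.889 TPM, and Brd3 at 12.3 ± 2.23 and Aff1 at 10.0 ± 0.497 TPM were lowest and overlapped. In DSF the order of the upper 7 was the same, although the libraries of Aff4, from 27.02 to 39.7 TPM, overlapped those of Larp7 and Hexim1, as they did not in DMSO, and still overlapped those of Ccnt1. Aff1, at 19.0 ± 0.462 TPM, then lay above Brd3, at 13.4 ± 0.78 TPM, in all libraries.

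**Figure D2:**
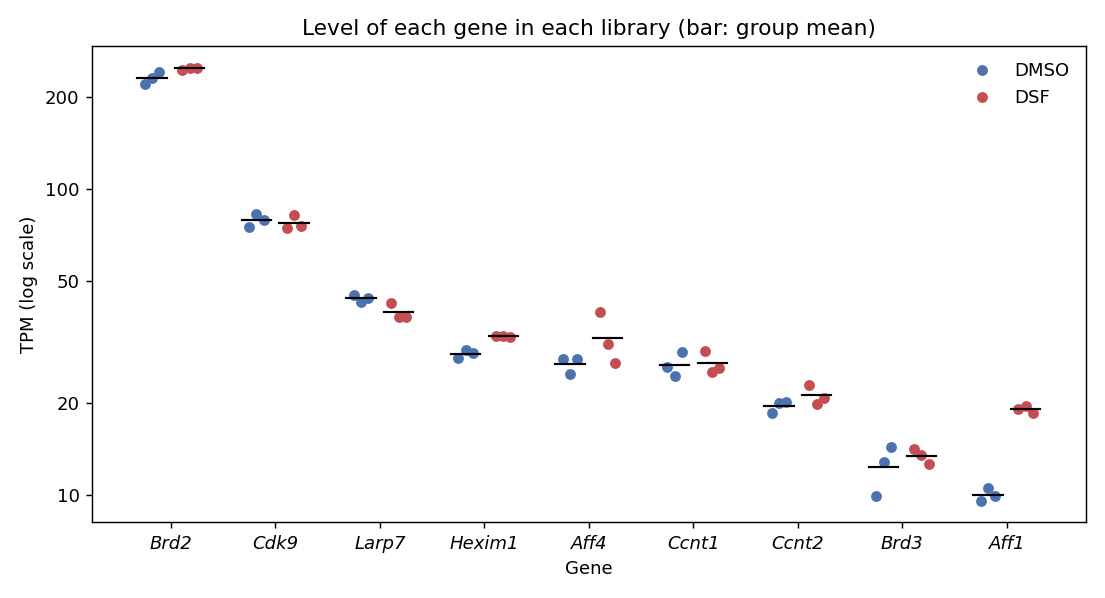
TPM of each member (x axis, ordered by its level in DMSO) in each library on a log scale (y axis), with the group mean as a bar, DMSO in blue and DSF in red, 3 libraries each. Brd2 lies above 220 TPM in every library, and Aff1 moves from about the level of Brd3 in DMSO to between 18.55 and 19.47 TPM in DSF.

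Hexim1 (ENSMUSG00000048878) encodes the protein that blocks the kinase of P-TEFb within the 7SK particle, and its gene is itself known to be switched on when P-TEFb is released. It lies on chromosome 11 at 103116231 to 103119725 of GRCm38, on the plus strand, and has 1 annotated transcript of a single exon. Hexim1 stood at 75.5, 78.8 and 75.7 CPM in the DMSO libraries and at 86.0, 86.1 and 86.1 CPM in the DSF libraries. All DSF libraries were above all DMSO libraries, and they lay closer together than the DMSO libraries did. The log2 fold change was 0.17 ± 0.05 (SE), with a 95% confidence interval of 0.07 to 0.26 and edgeR's adjusted p of 0.00718. The rise was 1.12-fold, and 20.8% of all tested genes had a larger rise.

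Its paralogue Hexim2, which lies next to it on the chromosome and can take its place on 7SK, averaged 4.95 CPM in DMSO and 4.27 CPM in DSF, short of the threshold (edgeR's adjusted p = 0.341). The 7SK RNA gene itself, Rn7sk, had 88 to 113 counts in the DMSO libraries and 62 to 120 in the DSF libraries, with no call (edgeR's adjusted p = 0.692). The libraries were made with an mRNA kit, so the counts of this RNA, which has no poly(A) tail, need not follow its level in the cells.

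Larp7 (ENSMUSG00000027968; chromosome 3, 127536714 to 127553349, minus strand) encodes the La-related protein that binds the 3′ end of 7SK. Larp7 stood at 68.5, 63.9 and 64.2 CPM in DMSO and at 62.1, 56.3 and 56.1 CPM in DSF. The groups did not overlap, but the highest DSF library, 62.1 CPM, lay close below the lowest DMSO library, 63.9 CPM. The log2 fold change was -0.17 ± 0.05 (SE; edgeR's adjusted p = 0.0144). The call of Larp7 ended without DMSO library 1 (edgeR's adjusted p = 0.0637), without DSF library 2 (0.0938) and without DSF library 3 (0.099). In the authors' deposited table its adjusted p was 0.0531.

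Cdk9 (ENSMUSG00000009555; chromosome 2, 32705784 to 32713076, minus strand), the kinase subunit, stood at 88.3, 93.3 and 90.6 CPM in DMSO and at 81.2, 89.1 and 83.6 CPM in DSF. The DSF library at 89.1 CPM reached into the DMSO range. Its log2 fold change of -0.10, with a 95% confidence interval of -0.20 to 0.00, did not pass (edgeR's adjusted p = 0.14). The microRNA genes Mir2861 and Mir3960 lie in exons of Cdk9 on the same strand.

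Ccnt1 (ENSMUSG00000011960; chromosome 15, 98538689 to 98570923, minus strand), the main cyclin partner of CDK9, stood at 103.6, 101.2 and 108.7 CPM in DMSO and at 104.3, 96.2 and 105 CPM in DSF. Ccnt2 (ENSMUSG00000026349; chromosome 1, 127774164 to 127808061, plus strand), the alternative partner, stood at 69.9, 74.3 and 67.7 CPM in DMSO and at 74.7, 72.9 and 69.0 CPM in DSF. The groups overlapped in both cyclin genes. Their log2 fold changes, -0.04 for Ccnt1 (95% confidence interval -0.13 to 0.06) and 0.03 for Ccnt2 (-0.07 to 0.13), gave edgeR's adjusted p of 0.643 and 0.741, and neither was called.

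Brd2 (ENSMUSG00000024335; chromosome 17, 34112023 to 34122634, minus strand) encodes a BET protein with paired bromodomains. Brd2 stood at 388.4, 401.3 and 400.7 CPM in DMSO and at 436.4, 436.9 and 429.9 CPM in DSF, so the DSF libraries were all higher. The rise was 1.09-fold, with a log2 fold change of 0.13 ± 0.03 (SE; edgeR's adjusted p = 0.00235). Exons of Brd2 overlap H2-DMa and CR974462.3 on the opposite strand, and those of Ccnt1 overlap 9330020H09Rik there. The sources used here do not say if strand was used in counting, so counts of both genes are uncertain to that extent.

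Brd3 (ENSMUSG00000026918; chromosome 2, 27445579 to 27507662, minus strand), the related BET gene, stood at 41.0, 45.4 and 45.8 CPM in DMSO and at 47.7, 46.0 and 49.6 CPM in DSF. The groups did not overlap, by a margin between 45.8 and 46.0 CPM, and the log2 fold change of 0.11 did not pass (95% confidence interval 0.00 to 0.22, edgeR's adjusted p = 0.139).

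Aff1 (ENSMUSG00000029313; chromosome 5, 103692374 to 103855322, plus strand) encodes a scaffold of the super elongation complex and is known as a fusion partner of the MLL gene in leukaemia. Aff1 stood at 64.4, 69.3 and 64.2 CPM in the DMSO libraries and at 121.6, 119.8 and 121.2 CPM in the DSF libraries. The gap between the groups was many times the spread within either. The log2 fold change was 0.87 ± 0.05 (SE), with a 95% confidence interval of 0.78 to 0.97 and edgeR's adjusted p of 8.4e-16. A share of 2.1% of the tested genes had a larger rise, and 2.88% rose at least 1.5-fold at an adjusted p under 0.05.

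Aff4 (ENSMUSG00000049470; chromosome 11, 53350833 to 53421830, plus strand), the scaffold gene that stands beside it in most accounts of the complex, rose far less. Aff4 stood at 151.4, 136.3 and 137.8 CPM in DMSO and at 161.7, 162.1 and 159.5 CPM in DSF, with no overlap. Its log2 fold change was 0.18 ± 0.04 (SE; edgeR's adjusted p = 0.00113), or 1.14-fold. Another family member, Aff3, averaged 24.7 CPM in DMSO and 25.5 CPM in DSF, with no call (edgeR's adjusted p = 0.744).

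Ratios within a library show how the members moved against each other, and no test was run on them. The ratio of Hexim1 to Cdk9, the inhibitor to the kinase, in TPM was 0.371, 0.361 and 0.368 in DMSO and 0.444, 0.402 and 0.435 in DSF. All DSF libraries were higher, and the mean was 1.17 times that in DMSO from TPM and 1.21 times from CPM. The ratio of Aff1 to Aff4 in TPM was 0.344, 0.424 and 0.355 in DMSO and 0.481, 0.626 and 0.687 in DSF, again with no overlap, and its mean was 1.6 times higher. The ratios of Larp7 to Cdk9 (0.556 ± 0.0417 and 0.512 ± 0.052), Ccnt1 to Ccnt2 (1.36 ± 0.128 and 1.27 ± 0.0183) and Brd2 to Brd3 (19.1 ± 2.84 and 18.6 ± 1.21; TPM, mean ± SD, n = 3 per group) overlapped between DMSO and DSF.

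**Figure D3:**
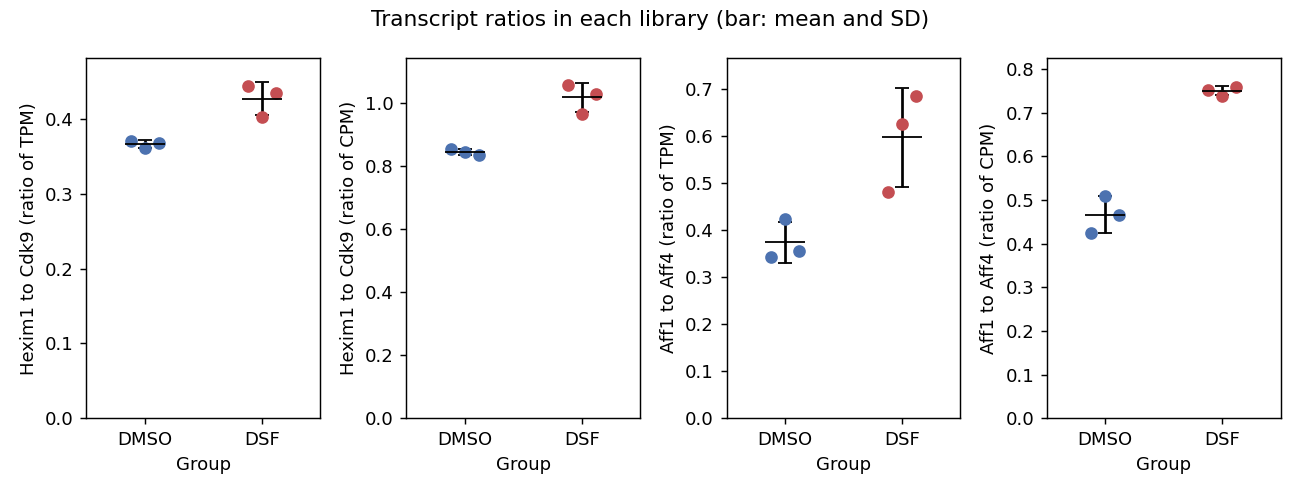
Ratio of Hexim1 to Cdk9 and of Aff1 to Aff4 in each library (y axes, from TPM and from CPM) for DMSO and DSF (x axes), with points for libraries and bars for the mean and SD of 3. Both ratios are higher in every DSF library, and the spread of Aff1 to Aff4 in DSF is wider in TPM (SD 0.106) than in CPM (SD 0.0109).

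Counts and TPM agreed for some members better than for others. The mean transcript length that a library's counts and TPM imply, scaled on genes with 1 annotated transcript, was 3517 to 3539 bases for Hexim1 over all 6 libraries, close to the 3495 bases in the deposited table. For Aff4, which has 8 annotated transcripts, it was 7139, 7317 and 6721 bases in DMSO and 5545, 7059 and 7963 bases in DSF. The DSF libraries of Aff4 thus lay on both sides of all DMSO libraries, and its TPM in DSF ran from 27.02 to 39.7. Brd3, with 10 annotated transcripts, varied from 4371 to 5434 bases and Ccnt1, with 9, from 4812 to 5522 bases, with both groups overlapping. For Brd2 the DSF libraries, at 2322 to 2412 bases, lay just above the DMSO libraries, at 2260 to 2308 bases. For Cdk9 they lay just below, at 1461 to 1494 against 1505 to 1555 bases. The deposited length lay far from the implied lengths for Ccnt1 (2175 bases), Ccnt2 (6738), Brd2 (4657) and Aff4 (10099). It lay nearer to them for Larp7 (2121), Cdk9 (1733), Brd3 (5289) and Aff1 (8312). The authors' isoform estimates enter the implied lengths and so the order of the members by TPM. No test was run on these lengths.

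**Figure D4:**
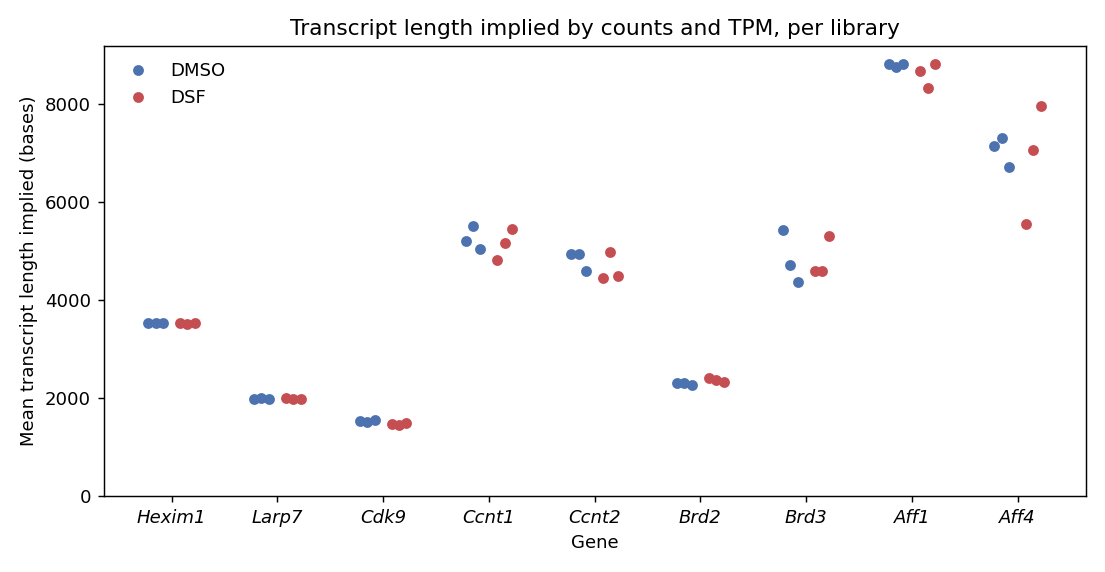
Mean transcript length in bases implied by the estimated counts and TPM of each library (y axis) for the 9 members (x axis), DMSO in blue and DSF in red. Hexim1 and Larp7 barely vary, and Aff4 spreads from 5545 to 7963 bases within DSF.

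By limma on log2(TPM + 1), 1 of the 9 members, Aff1, passed. On that scale the adjusted p values of limma were 0.0528 for Hexim1, 0.143 for Brd2, 0.295 for Aff4 and 0.154 for Larp7, with the same directions as in counts. Over all genes limma on log2(TPM + 1) called 1348, against 3276 by edgeR. The authors' deposited table gives log2 fold changes of 0.87 for Aff1, 0.19 for Aff4, 0.17 for Hexim1 and 0.13 for Brd2, with adjusted p of 2e-57, 0.000814, 0.0145 and 0.000161. These were the 4 of the 9 members with an adjusted p under 0.05 in the authors' deposited table, against 8.54% of the 27139 genes tested there. Those genes include many below the filter used here, which kept 14318, so that share is not matched to the members in level. The significance column of the authors' deposited table marks none of the 9, Aff1 included, and does not mark Myc either. An adjusted p under 0.05 is thus not enough for a mark there. The share of all genes that it marks was not counted here.

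The authors' deposited table also compares a group coded DC, which the labels do not explain, with DO and with DF. These comparisons share the DMSO or DSF libraries with the one above. For DC against DO, 1 of the 9 members, Aff1, had an adjusted p under 0.05 in the authors' deposited table, against 0.345% of the genes tested there. For DC against DF there were 3 of 9 in the authors' deposited table (Brd2, Aff1 and Aff4, all lower in DC), against 7.11% of the genes tested there. Both shares again cover many genes below the filter used here.

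The members differ widely in gene span, which ran from 3.5 kb for Hexim1 and 7.3 kb for Cdk9 to 71.0 kb for Aff4 and 162.9 kb for Aff1. Over all tested genes, the share higher with DSF was 6.7% of 4638 genes under 10 kb, 11.5% of 6365 genes of 10 to 50 kb, 19.3% of 1844 genes of 50 to 100 kb and 17.3% of 1471 genes of 100 kb and over. The shares lower were 11.1%, 12.4%, 10.5% and 8.3%, and the median log2 fold changes -0.02, -0.01, 0.03 and 0.03. Hexim1 and Cdk9 fall in the class under 10 kb, and Larp7, Ccnt1, Ccnt2 and Brd2 in that of 10 to 50 kb. Aff4 and Brd3 fall in the class of 50 to 100 kb and Aff1 in the longest. Of the members called higher, Hexim1 and Brd2 thus lie below 50 kb and Aff4 and Aff1 above it.

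Myc, which encodes a transcription factor whose transcription is known for its need of BET proteins and P-TEFb, moved the other way from Hexim1. Myc stood at 106.8, 116.4 and 108.2 CPM in DMSO and at 64.1, 71.1 and 65.2 CPM in DSF, without overlap (log2 fold change -0.73 ± 0.05 SE, edgeR's adjusted p = 5.74e-13). Its fall to 0.60 of the DMSO level was several times larger on the log2 scale than the rise of Hexim1.

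The wider elongation machinery was covered by 7 lists of 82 genes, all of which were tested. Of these, 4 were higher and 7 lower with DSF (13.4%), with a median log2 fold change of -0.03. That share was below the 22.9% of all tested genes. It was also below the 28.8% of those averaging 5 CPM or more, as 78 of the 82 do. Among 10 genes of the 7SK complex and regulators of P-TEFb, 3 were lower and 0 higher, with a median of -0.10. Their share of 30.0% stood against 22.9% of all tested genes and 28.8% of those averaging 5 CPM or more. Ddx21, a helicase known to release P-TEFb from 7SK, fell from 417 ± 14.5 to 343 ± 3.48 CPM (n = 3 per group; edgeR's adjusted p = 6.51e-08). Srsf2, a splicing factor that binds 7SK, fell from 405 ± 7.29 to 345 ± 4.06 CPM (edgeR's adjusted p = 1.28e-06). Ppm1g, a phosphatase gene, fell from 169 ± 5.24 to 154.5 ± 4.69 CPM (edgeR's adjusted p = 0.012). The call of Ppm1g ended on leaving out DMSO library 2 (edgeR's adjusted p = 0.0538), DMSO library 3 (0.0554), DSF library 1 (0.0878) and DSF library 3 (0.0598). Mepce averaged 90.0 CPM in DMSO and 85.7 CPM in DSF, with no call (edgeR's adjusted p = 0.375).

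Among 12 other genes of BET proteins and the super elongation complex, 2 were higher and 0 lower (16.7%, against 22.9% of all tested genes), with a median of 0.07. Ell, which encodes an elongation factor of the complex, rose 1.37-fold, from 42.8 ± 1.83 to 58.7 ± 2.58 CPM (n = 3 per group; edgeR's adjusted p = 4.06e-08). Its relative Ell2 averaged 43.4 CPM in DMSO and 48.3 CPM in DSF, with no call (edgeR's adjusted p = 0.0529). The 9 genes of other transcription kinases had 2 higher and 0 lower (22.2%), a share close to the 22.9% of all tested genes. It was below the 28.8% of those averaging 5 CPM or more. Ccnc, a cyclin of the Mediator complex, rose from 39.9 ± 2.8 to 50.1 ± 3.35 CPM (edgeR's adjusted p = 5.82e-05). Cdk19, a Mediator kinase, rose by 0.22 ± 0.06 on the log2 scale (SE; edgeR's adjusted p = 0.00548). Cdk8, the related Mediator kinase, had a log2 fold change of -0.11 and was not called (edgeR's adjusted p = 0.133). The call of Cdk19 ended without DMSO library 2 or DSF library 1 (edgeR's adjusted p = 0.0988 and 0.054). Cdk12 and Cdk13, which also encode kinases of the polymerase tail, had log2 fold changes of -0.03 and -0.01.

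**Figure D5:**
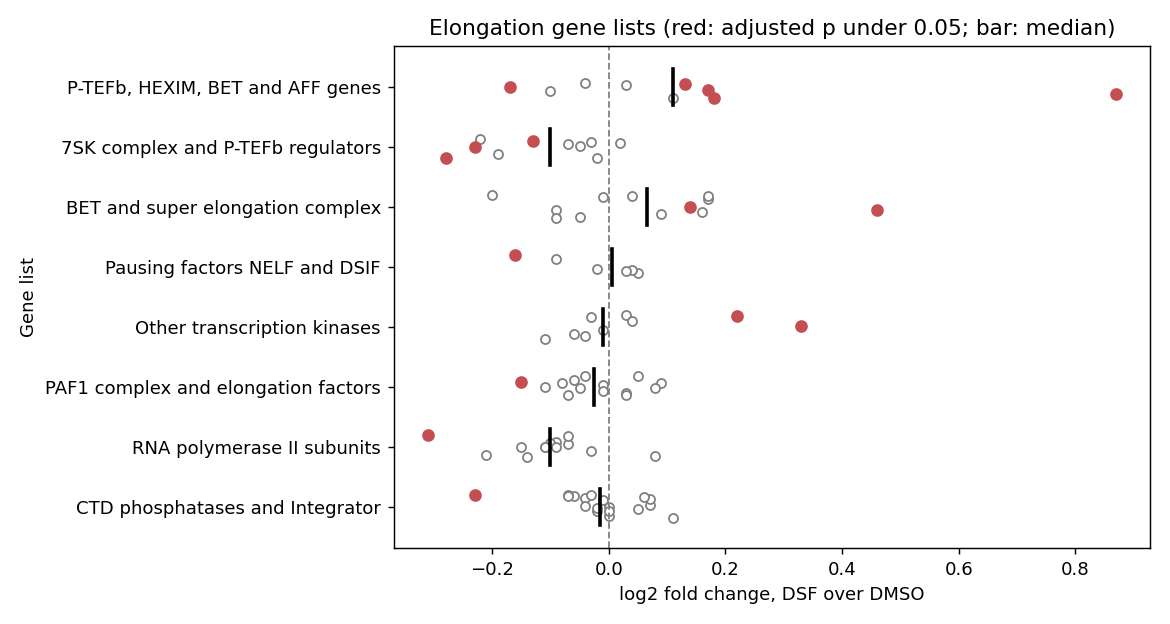
Log2 fold change with DSF (x axis) of each tested gene in the 9 members and the 7 elongation lists (y axis), with genes at an adjusted p under 0.05 in red and the list median as a bar. The genes of the 7 lists lie between -0.31 and 0.46, and Aff1 at 0.87 is farther right than any of them.

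In each of the remaining 4 lists 1 gene passed, which is 16.7% of the NELF and DSIF list and 5.6 to 7.7% of the other lists, against 22.9% of all tested genes. Of 6 genes of NELF and DSIF, the factors that hold the paused polymerase, Supt4a fell from 71.1 ± 2.64 to 63.6 ± 1 CPM (n = 3 per group; edgeR's adjusted p = 0.0141). That call of Supt4a ended without DMSO library 1 or DSF library 3 (edgeR's adjusted p = 0.0552 and 0.0805). Of 14 genes of the PAF1 complex and elongation factors, Supt16, which encodes a subunit of the histone chaperone FACT, fell from 207 ± 6.17 to 187 ± 4.01 CPM (edgeR's adjusted p = 0.00259). Of 13 RNA polymerase II subunit genes, Polr2j fell from 29.0 ± 0.77 to 23.3 ± 1.58 CPM (edgeR's adjusted p = 0.000696). The median over these 13 genes was -0.10. Polr2a, the largest subunit, averaged 213 CPM in DMSO and 225 CPM in DSF, with no call (edgeR's adjusted p = 0.185). Of 18 genes of phosphatases of the polymerase tail and Integrator, Rpap2 fell from 24.0 ± 1.77 to 20.5 ± 1.23 CPM (edgeR's adjusted p = 0.0235). The call of Rpap2 ended on leaving out DMSO library 1 (edgeR's adjusted p = 0.124), DMSO library 2 (0.0531), DSF library 2 (0.0794) and DSF library 3 (0.143), and with DESeq2 (adjusted p = 0.0865). Exons of Srsf2, Ccnc, Cdk19, Supt16, Polr2j and Rpap2 overlap an opposite-strand gene, and reads of both may be mixed there.

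The genes whose centred log2 CPM lay nearest to that of Hexim1 over the 6 libraries, among 9576 candidates (tested genes averaging 5 CPM or more, without the members and without names of predicted models or clones), were Mapk3, Pan3, Chd6, Tbc1d17 and Rab1a, at Euclidean distances of 0.02 to 0.047. Mapk3, which encodes the kinase ERK1, stood at 55.2, 57.5 and 56.0 CPM in DMSO and at 63.3, 62.8 and 63.5 CPM in DSF. Pan3, which encodes a subunit of a deadenylase, stood at 114.5, 117 and 113.5 CPM and at 128, 128 and 129 CPM. Tbc1d17, the least abundant of the 5, did not pass (edgeR's adjusted p = 0.0851), and the other 4 were higher. Likeness was chosen here on the same libraries and is a description.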

How the data were processed

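RNA-seq of 3 DMSO and 3 DSF libraries of OT-I T cells was used. Per the labels' protocols, each library took 1 µg of total RNA and a SMARTER kit for mRNA. The submitters' processing notes name the build GRCm38 (mm10). For aligner, counter and strandedness: not given in the sources used here.

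Estimated counts per gene and library make up the deposited table, together with TPM by the authors, per the file headers; 12.1 to 12.9% of the count values are not whole. Log2 fold changes, fold changes as a ratio, p-values and adjusted p-values by the authors stand beside them, in files titled as DESeq2 output. Columns lettered A and B were taken as DMSO and DSF, since the deposited means headed DO and DF equal their means in all 55536 genes within 0.0001 TPM. Unused columns of library values: 0.

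Estimated counts were rounded, filtered with filterByExpr (14318 genes kept), scaled by TMM (factors 0.9952 to 1.0053) and tested by quasi-likelihood with robust dispersions in edgeR 4.0.16 (R 4.3.3), with group as the only term and Benjamini-Hochberg over all tested genes. Standard errors were derived from the log2 fold change and its F value, and intervals follow from them. CPM are scaled by TMM. Pairs of replicates differed beyond counting error (chi-square over its degrees of freedom 2.22 to 4.28), so each was kept. Simulated data for DSF against DMSO (14369 genes) gave recoveries of 8% at a 1.1-fold change, 86% at 1.25-fold and 100% at 1.5-fold. In them a far smaller share of genes was changed than was called here, and all genes had the same dispersion. The recoveries need not hold for the real libraries. Alternatives were DESeq2 1.42.0, other scalings and filters, unrounded counts, a replicate block, limma 3.58.1 on log2(TPM + 1) and log2(TPM + 0.1), and leaving out each library. The members and gene lists were chosen with earlier results of these data known. Named genes are the 9 members, Myc, the 3 called genes with the smallest p of each list and the 5 nearest profiles to Hexim1. A gene that this rule names is not reported here. Other list genes named (Hexim2, Rn7sk, Mepce, Aff3, Ell2, Cdk8, Cdk12, Cdk13 and Polr2a) were chosen after their values were seen. Gene positions and exon overlaps came from GENCODE M21. The implied transcript lengths and gene span classes were added after the data were seen.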

Additional observations from a re-analysis of the deposited data

Results flagged for a closer look

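The deposited tables also hold the authors' comparisons with a group coded DC, which the labels do not explain and whose libraries were not analysed here. These comparisons share the DMSO or the DSF libraries with the comparison above, so their values stand side by side with it. In the authors' deposited table Aff1 was higher in DC than in DO by a log2 fold change of 0.73 (adjusted p = 3.09e-32), where 0.345% of the 26951 genes tested there had an adjusted p under 0.05. Myc was lower in DC than in DO by -0.19 in the authors' deposited table (adjusted p = 0.0371). Against DF, the authors' deposited table gives log2 fold changes in DC of -0.15 for Aff1 (adjusted p = 0.0165), -0.15 for Aff4 (adjusted p = 0.00271), -0.10 for Brd2 (adjusted p = 0.00281) and 0.53 for Myc (adjusted p = 1.2e-19), where 7.11% of the genes tested there passed. Hexim1 stood at 0.12 for DC against DO and -0.05 for DC against DF in the authors' deposited table, with adjusted p of 0.636 and 0.678. What flagged these values is that they lie outside the comparison of DSF with DMSO. With 3 libraries a group, outlying libraries were not tested for.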

How the results depend on the processing

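The log2 fold changes of Hexim1 (0.16 to 0.19), Larp7 (-0.22 to -0.14), Brd2 (0.10 to 0.14), Aff1 (0.86 to 0.92), Aff4 (0.16 to 0.26) and Myc (-0.77 to -0.68) kept their sign in all 15 alternatives, and the calls of Aff1 and Myc held in each. The number of members called was 5 in 10 of the 15 alternatives and 4 to 5 when a library was left out, where the call lost was that of Larp7. It was 1 by limma on log2(TPM + 1) and 1 on log2(TPM + 0.1), on which all genes gave 1348 and 1338 calls and the 82 listed genes 5 and 5, against 3276 and 11 by edgeR. The cause was not tested. Ccnt1, which was not called, ran from -0.06 to 0.01 when a library was left out, with a change of sign without DSF library 2, and changed sign by limma on log2(TPM + 1) and log2(TPM + 0.1) (0.02 in each). DESeq2 called 2548 genes and 5 members. With a library left out, all genes gave 2565 to 2972 calls and the listed genes 8 to 13. With the replicate number as a block, 3829 genes, 5 members and 18 listed genes were called. Same-numbered libraries of DMSO and DSF correlated at 0.035 to 0.055 in their deviations from the group means, each best with its own number. The other pairs ran from -0.052 to 0.004. The main test was left unpaired because the labels name no pairing, and a weak pairing by number remains possible. In the simulated data 8% of 1.1-fold changes were recovered, so other changes as small as those of several members may have been missed.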
